A study of Mus musculus with 33 samples.

Results

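The response of unmutated embryoid bodies to retinoic acid (RA) was read from 6 of the 33 RNA-seq libraries of the series, 3 of control EBs and 3 of control EBs + RA, chosen by their labels alone. All 6 came from the mouse embryonic stem cell (mESC) line E14TG2a, labelled wild-type. The 3 clones in each group, #1, #4 and #7, are colonies of that single line picked after transfection with a Cas9 plasmid that carried no guide RNA and selection with puromycin, so every library had been through the same transfection and cloning. Each clone was grown as embryoid bodies (EBs), floating aggregates in which mESCs differentiate, and its EBs were divided on day 4. From then on EBs of the control group stayed in the EB medium, whereas the EBs + RA group received the same medium with 5 µM all-trans RA, and both were harvested on day 8. No vehicle is named for the EBs without RA. The other libraries of the study are mESCs and mutants of the DNA repair genes Neil1, Neil2 and Apex1, of which only the levels in the 3 control mESC libraries are given here, beside the EB values.

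RA is made from vitamin A by retinaldehyde dehydrogenases, carried by cellular binding proteins and broken down by the Cyp26 enzymes. It binds the receptors RARα, RARβ and RARγ, which pair with RXR and sit on response elements built from repeats of a short DNA unit; on binding RA they exchange co-repressors for co-activators. In the embryo RA patterns the hindbrain and the spinal cord along the body axis, acts on the Hox clusters, and opposes the Fgf and Wnt signals of the tail bud, and in EBs it is widely used to direct cells toward neural fates.

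The response elements of the RA receptor gene Rarb and the RA-degrading enzyme gene Cyp26a1 can be seen in their promoters. Each line shows the 120 bases before a gene's RefSeq start in GRCm38.p6, read 5′ to 3′ on the gene's strand, with the repeat and its 5-base spacer in capitals. The stretch lies at chr14:16575477-16575596 on the minus strand for Rarb and at chr19:37697688-37697807 on the plus strand for Cyp26a1.
Rarb: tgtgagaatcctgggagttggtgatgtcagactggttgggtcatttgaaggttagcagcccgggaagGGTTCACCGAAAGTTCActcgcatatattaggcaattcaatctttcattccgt
Cyp26a1: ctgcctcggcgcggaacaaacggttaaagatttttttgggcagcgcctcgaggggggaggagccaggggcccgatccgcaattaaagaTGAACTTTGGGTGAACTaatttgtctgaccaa
The motif shown, searched on both strands, was a pair of units in the same direction with 5 bases between them (DR5). A unit was AGGTCA or its variant AGTTCA, or the further form GGGTCA with its variant GGTTCA. The Rarb match ran from base −53 to base −37 before the start, and the Cyp26a1 match from −32 to −16, on the opposite strand to the gene. Read in the direction of the motif, they shared 15 of 17 positions and differed by G1A and G9C, Rarb's base before the position and Cyp26a1's after it, counted from 1 at the 5′ end of the motif. The motif was rare: of 27025 genes with RefSeq promoter windows of 250 bases before to 50 bases after a start, 31 held it, 0.115%. Among genes tested here with a window, 4 of 2516 raised genes held it (Rarb, Cyp26a1, Gm14133 and Ppbp), as did 1 of 2179 lowered genes, Blvrb, and 6 of 10846 in all, the remaining gene being Prokr2. Pairs with 1 or 2 bases between the units (DR1 and DR2) were searched as well. DR1 was held by 4 raised, 4 lowered and 27 tested genes of the same sets, and DR2 by 4, 3 and 12. A match describes these letters only, and of the 85 genes of the retinoid and Hox lists 52 had a window to search.

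Totals on genes ran from 25510159 to 48350904 counts in the 6 libraries. In a principal component analysis the groups lay apart on the leading component, which held 83.8% of the variance, and EBs + RA of clone #7 stood apart from the other EBs + RA libraries on the next, which held 7.79%. Values below follow the order of the clones #1, #4 and #7, and are CPM, counts brought to a common library size with TMM scaling factors. Levels are not corrected for gene length, so they are compared between libraries and not between genes. The groups are called different where edgeR's quasi-likelihood test gave a Benjamini-Hochberg adjusted p (FDR) below 0.1 with a log2 fold change beyond 0.5 in either direction, and "rose" and "fell" are used only of genes that met both limits. Each log2 fold change is EBs + RA against EBs with its standard error (SE), 3 libraries against 3. The clones are cultures of 1 line, so the tests measure the spread between clones of this line.

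RA changed a large share of the expressed genes. Of 15919 genes tested, 3717 rose (23.3%) and 3302 fell (20.7%), together 7019 or 44.1%, and the median log2 fold change of all tested genes was 0.01. Counts of list members called below are to be read beside these shares. The 3 EBs + RA libraries lay above all 3 EBs libraries for 30.6% of tested genes and below them for 29.6%, in sum 60.2% without overlap. Rises reached further than falls: 465 genes rose and 277 fell by more than 3 on the log2 scale, and 130 rose and 53 fell by more than 5. The direction was shared by 3 of 3 clones for 3684 of the raised genes and 3282 of the lowered ones. In RNA from whole EBs, a change in the number of cells of a type and a change in the RNA per cell cannot be told apart.

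**Figure D1:**
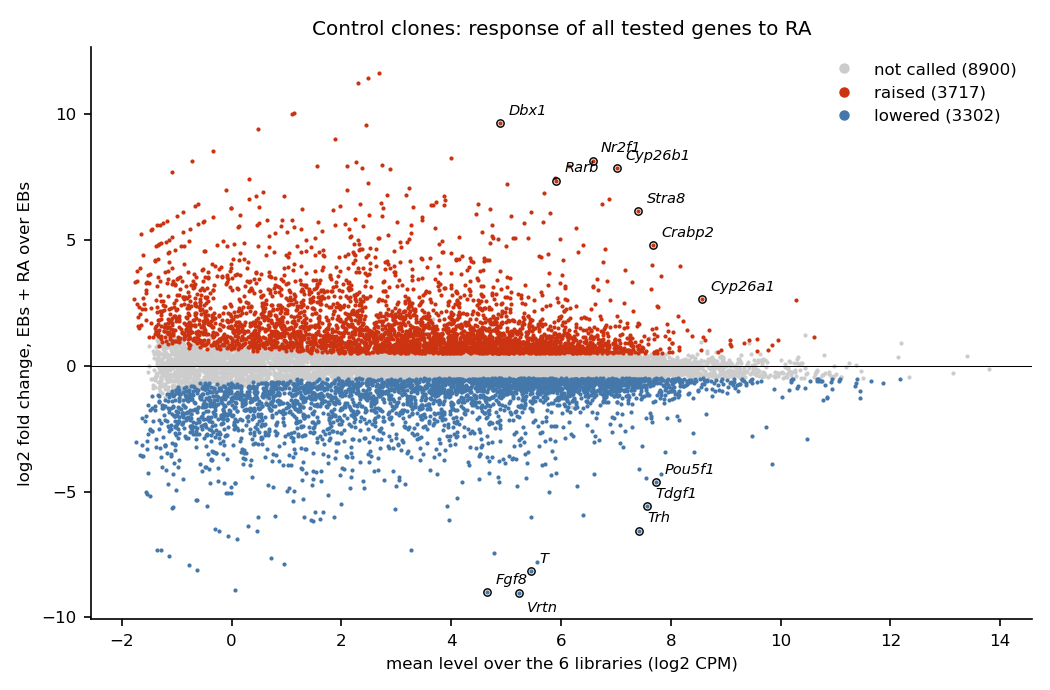
Mean expression (x axis, log2 CPM) against log2 fold change of EBs + RA over EBs (y axis) for the 15919 genes tested, 1 point per gene, with the 3717 raised and 3302 lowered genes coloured and some of the genes named in the text labelled. Genes with no count in EBs have fitted changes that depend on the prior count, and among the labelled genes the log2 fold change runs from −9.03 at Vrtn to 9.63 at Dbx1.

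Genes that handle RA itself rose together. Of the 17 genes of retinoid synthesis, transport and breakdown, all of which were tested, 12 rose and 2 fell, with a median log2 fold change of 2.65. The largest rise was in Cyp26b1 (ENSMUSG00000063415, chromosome 6 from 84521938 to 84543740, coordinates here and below in NCBIM37), which breaks RA down. It was read at 1.27, 1.34 and 0.710 CPM in EBs and at 235, 243 and 299 CPM in EBs + RA (log2 fold change 7.85, SE 0.22, FDR 2.4e-07), and the groups lay far apart in every clone. The paralog Cyp26a1 (ENSMUSG00000024987, chromosome 19 from 37772298 to 37776018) was already present without RA. It stood at 99.9, 91.9 and 121 CPM in EBs and 598, 535 and 837 CPM in EBs + RA (log2 fold change 2.65, SE 0.19, FDR 1.5e-05), against 1.95, 2.98 and 2.14 CPM in mESCs. Cyp26c1, the remaining member of the family, went from 0.516, 0.945 and 0.971 to 5.38, 6.58 and 6.58 CPM (log2 fold change 2.96, SE 0.30, FDR 7.1e-05). Clone #7 had the highest Cyp26a1 and Cyp26b1 of the EBs + RA libraries.

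On the side of synthesis and storage the genes did not move as a block. Dhrs3, whose enzyme reduces retinaldehyde back to retinol, went from 4.26, 5.75 and 7.85 to 123, 156 and 212 CPM (log2 fold change 4.80, SE 0.29, FDR 9.9e-06). Aldh1a2, the main RA-making dehydrogenase of the early embryo, rose from 5.44, 4.33 and 3.70 to 92.2, 91.1 and 94.5 CPM (log2 fold change 4.35, SE 0.15, FDR 4.7e-07). Its relative Aldh1a1 rose from 0.194, 0.157 and 0.112 to 8.61, 7.72 and 8.17 CPM (log2 fold change 5.64, SE 0.29, FDR 2.5e-06), a low level, whereas the third dehydrogenase, Aldh1a3, fell from 4.32, 3.35 and 0.897 to 0.429, 0.380 and 0.540 CPM (log2 fold change −2.67, SE 0.56, FDR 0.0042). Thus members of the same enzyme family moved in opposite directions. Rdh10, which oxidizes retinol, rose modestly, from 22.6, 24.7 and 19.4 to 53.8, 37.7 and 45.4 CPM (log2 fold change 1.04, SE 0.16, FDR 0.00066). Lrat, which esterifies retinol for storage, stayed below 1 CPM in all 6 libraries and did not pass the limits.

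The cellular RA binding protein genes Crabp1 and Crabp2 rose. Crabp2, which delivers RA to the nucleus, went from 14.9, 15.4 and 12.7 to 497, 429.6 and 261 CPM (log2 fold change 4.78, SE 0.25, FDR 4.7e-06), and clone #7 had the lowest level with RA. Crabp1, a binding protein known from the hindbrain and the neural crest, went from 20.1, 19.8 and 19.9 to 212, 243 and 167 CPM (log2 fold change 3.38, SE 0.15, FDR 1.2e-06). Stra6, the membrane receptor that takes up retinol, rose from 1.91, 3.23 and 1.98 to 46.6, 42.9 and 48.9 CPM (log2 fold change 4.30, SE 0.21, FDR 2.1e-06). The secreted carriers Rbp4 and Ttr are products of visceral endoderm as well and are given with it below.

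Among the receptors the balance of the RARs changed. Rarb (ENSMUSG00000017491, chromosome 14 from 17263356 to 17651381), whose promoter carries the element printed above, was near 1 CPM without RA (0.732, 0.984 and 0.486 CPM) and at 130.5, 130.5 and 99 CPM with it (log2 fold change 7.35, SE 0.23, FDR 3.1e-07). Rarg moved the other way, from 98.3, 88.7 and 67.8 to 16.5, 18.6 and 27.5 CPM (log2 fold change −2.02, SE 0.22, FDR 0.00013), after 302, 305 and 389.9 CPM in mESCs. Rara rose about as much as its partner Rxra: Rara went from 41.7, 48.4 and 37.0 to 82.8, 109 and 95.8 CPM (log2 fold change 1.18, SE 0.14, FDR 0.00017). Rxra went from 27.7, 31.8 and 36.7 to 57.8, 64.8 and 76.1 CPM (log2 fold change 1.05, SE 0.14, FDR 0.00039). None of these 4 genes overlapped between the groups, as was the case for 60.2% of all tested genes. In the list of 12 receptors and co-regulators 4 rose and 3 fell, a median log2 fold change of 0.26. The co-repressor gene Ncor1 and the co-activator genes Ncoa1 and Ncoa2 stayed within 0.5 on the log2 scale, Ncoa3 fell by 0.64 and Rxrg, which was below 2 CPM, fell by 1.18 but did not pass without clone #1 (FDR 0.203). Nrip1, a co-repressor that RA itself induces, rose from 21.3, 22.1 and 18.8 to 104, 99.1 and 123 CPM (log2 fold change 2.39, SE 0.12, FDR 2.5e-06).

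Of 20 genes listed as known RA targets, which share Rarb, Nrip1 and several carriers and enzymes with the lists above, 18 rose and none fell, with a median log2 fold change of 3.41. The largest rise was in Nr2f1 (ENSMUSG00000069171, chromosome 13 from 78328234 to 78339018), an orphan nuclear receptor of the nervous system also known as COUP-TFI. It went from 0.602, 1.06 and 0.374 to 195, 244 and 131 CPM (log2 fold change 8.15, SE 0.37, FDR 3e-06). The antisense gene A830082K12Rik overlaps it by 1741 bases, and reads of an unstranded library cannot be split between them. The related Nr2f2 rose from 2.07, 3.11 and 2.39 to 244, 228 and 163 CPM (log2 fold change 6.41, SE 0.23, FDR 5.7e-07). Stra8, known as the RA-induced gatekeeper of meiosis in germ cells, rose from 1.96, 6.38 and 6.31 to 219, 280.2 and 507 CPM (log2 fold change 6.14, SE 0.57, FDR 0.00018). It had stood at 75.4, 146 and 93.2 CPM in mESCs, so EBs without RA were below both. Tgm2, a transglutaminase, rose from 13, 19.5 and 22.3 to 96.5, 66.5 and 184 CPM (log2 fold change 2.67, SE 0.39, FDR 0.00092). Cdx1, a caudal-type homeobox gene, was at 6.02, 4.57 and 7.14 CPM in EBs and 5.97, 6.73 and 8.74 CPM in EBs + RA and did not pass (FDR 0.36).

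**Figure D2:**
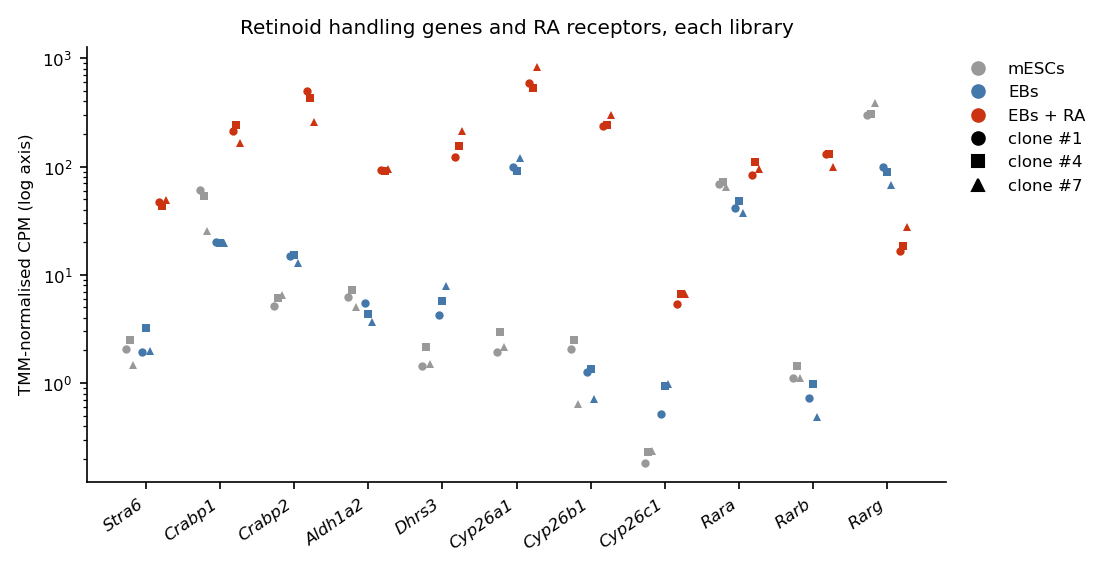
Level in each library (y axis, CPM on a log axis) of genes of retinoid handling and RA receptors (x axis), with 1 symbol per clone and 1 colour each for mESCs, EBs and EBs + RA. Rarb lies near 1 CPM in the 3 EBs libraries and between 99 and 130.5 CPM with RA, while Rarg is lower with RA in every clone.

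The Hox genes, transcription factors that specify position along the body axis, split by their place in the clusters. Paralog groups 1 to 8 lie toward the 3′ end of each cluster and mark the hindbrain and the anterior spinal cord and trunk. Of their 23 members 22 were tested, 21 rose and none fell, with a median log2 fold change of 4.67 and a range from 0.24 to 7.93. Paralog groups 9 to 13, which mark the posterior trunk and tail, gave the opposite picture. Of 16 members 14 were tested, 10 fell and 2 rose, with a median of −3.47 and a range from −6.17 to 4.32.

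Hoxc5 (ENSMUSG00000022485, chromosome 15 from 102844246 to 102847860) had the largest rise of the family, from 0.904, 0.472 and 0.187 to 143, 156 and 126 CPM (log2 fold change 7.93, SE 0.34, FDR 1.9e-06). Its annotation overlaps the transcript Gm20398 by 1862 bases on the same strand. Hoxa4 rose from 0.732, 0.630 and 0.635 to 105, 149 and 99.4 CPM (log2 fold change 7.44, SE 0.23, FDR 2.9e-07). The annotation of Hoxa3 covers all 2083 bases of Hoxa4, and Hoxa3 was listed at 0 counts in all 6 libraries and was not tested. Hoxa5 rose from 2.60, 2.87 and 1.57 to 243, 267 and 184 CPM (log2 fold change 6.61, SE 0.25, FDR 1e-06). Hoxb1, the most 3′ gene of its cluster and known to respond early to RA through its own elements, rose as well but was not at the top of the family on day 8. It went from 2.93, 1.81 and 3.06 to 43.9, 41.4 and 58.5 CPM (log2 fold change 4.19, SE 0.23, FDR 3.9e-06). Hoxd1 was the weakest call, at 8.39, 8.42 and 4.6 CPM in EBs and 16.9, 13.6 and 7.12 CPM in EBs + RA (log2 fold change 0.81, SE 0.35, FDR 0.082), and did not pass in 5 of 6 fits that left out 1 library (every one but EBs + RA of clone #7, FDR up to 0.282). Hoxc8, read at 9.92, 8.42 and 3.29 and 10.1, 7.87 and 7.66 CPM, was the tested member of the anterior groups that did not pass (FDR 0.61).

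Of the posterior genes, Hoxa11 fell most, from 7.68, 5.59 and 2.43 to 0.0660, 0 and 0.135 CPM (log2 fold change −6.17, SE 0.70, FDR 0.00017). Hoxd10 fell from 8.28, 6.57 and 2.28 to 0.0660, 0.0380 and 0.135 CPM (log2 fold change −6.08, SE 0.66, FDR 0.00013). Hoxa9, at the boundary between the anterior and posterior members of its cluster, fell from 16.2, 12.7 and 6.20 to 0.660, 0.380 and 0.945 CPM (log2 fold change −4.13, SE 0.45, FDR 0.00013), and in EBs of clone #7 its level was the lowest of the 3. The exceptions were in the Hoxb cluster. Hoxb9 rose from 9.70, 6.30 and 3.92 to 155, 137 and 80.9 CPM (log2 fold change 4.2, SE 0.37, FDR 7.2e-05). Hoxb13, the most 5′ gene of that cluster, rose from 0.280, 0.787 and 0.747 to 7.16, 10.8 and 16.6 CPM (log2 fold change 4.32, SE 0.46, FDR 0.00012) and was highest in clone #7. Across the 23 raised Hox genes, clone #7 had the lowest level of the EBs + RA libraries in 19, against 45% of all raised genes. Its summed Hox level was also the lowest without RA: the 39 genes summed to 177, 153 and 83.2 CPM in EBs and to 1485, 1693 and 1104 CPM in EBs + RA.

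**Figure D3:**
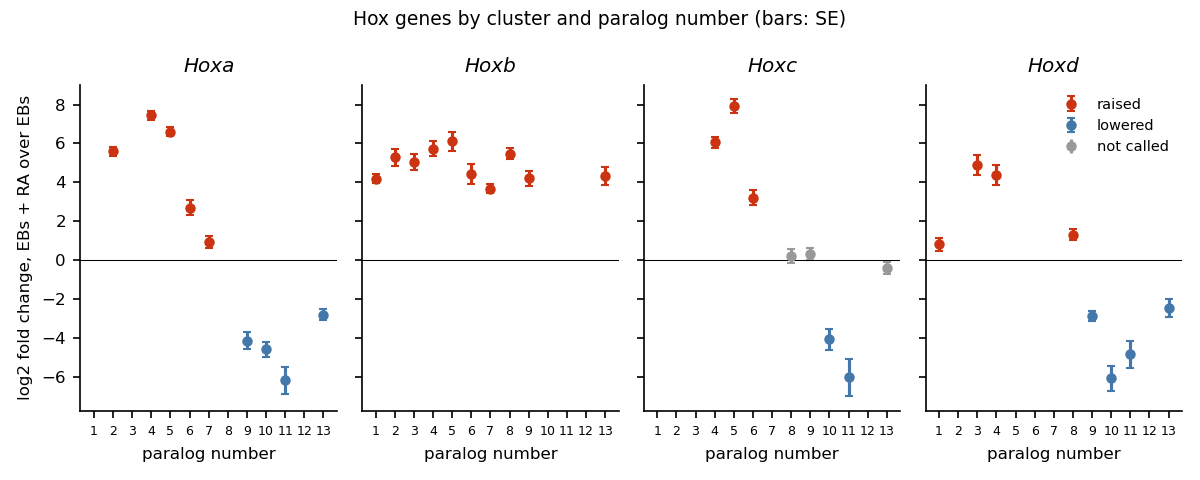
Log2 fold change of EBs + RA over EBs (y axis, bars are standard errors) for tested Hox genes, ordered by paralog group (x axis), with 1 panel per cluster and coloured by call; a member not reported here is left out. Groups 1 to 8 lie above 0 with a median of 4.67, and groups 9 to 13 have a median of −3.47, with Hoxb9 and Hoxb13 above 0.

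The homeodomain partners with which Hox proteins bind DNA rose too. Of 9 Pbx, Meis and Pknox genes 8 rose and none fell, with a median log2 fold change of 1.62. Meis1 led, from 3.96, 3.74 and 2.47 to 148, 158 and 145 CPM (log2 fold change 5.46, SE 0.18, FDR 3.1e-07). Meis2 went from 27.4, 32.3 and 24.6 to 267, 293 and 296 CPM (log2 fold change 3.34, SE 0.13, FDR 5.7e-07). The EBs + RA levels of both genes were close in all 3 clones. Pknox1 had a log2 fold change of 0.46, under the limit.

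Genes of the developing nervous system made up many of the strongest rises. Of 18 neural progenitor genes 16 were tested, 13 rose and 1 fell, with a median log2 fold change of 2.1. Hes5, a Notch target that keeps progenitors undifferentiated, rose from 0.0215, 0.157 and 0.0374 to 9.20, 12.1 and 4.15 CPM (log2 fold change 7.00, SE 0.66, FDR 6.1e-05). Pax6, a master regulator of neural progenitors and the eye, rose from 0.667, 1.10 and 0.971 to 127, 129 and 48.7 CPM (log2 fold change 6.84, SE 0.47, FDR 2.3e-05). The paired-box gene Pax2 rose from 0.602, 0.197 and 0.262 to 9.47, 10.4 and 6.61 CPM (log2 fold change 4.52, SE 0.40, FDR 3.5e-05). In each of these 3 genes the groups did not overlap, as was the case for 60.2% of all tested genes, and clone #7 was the lowest with RA. Nes, the intermediate filament nestin of progenitors, was already at 31.2, 31.0 and 45.3 CPM in EBs and rose to 156, 129.9 and 120.4 CPM (log2 fold change 1.92, SE 0.17, FDR 4.4e-05). Sox2, which is shared by neural progenitors and pluripotent cells, was the gene that fell, from 301, 313 and 298 to 86.1, 87.9 and 41.3 CPM (log2 fold change −2.08, SE 0.26, FDR 0.00036), while its close relative Sox3 rose from 8.99, 11.5 and 5.79 to 47.2, 63.9 and 16.2 CPM (log2 fold change 2.27, SE 0.49, FDR 0.0063). Sox1 is not analysed here.

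Genes that mark positions in the hindbrain and spinal cord rose strongly. Of 25 such genes 21 were tested, 17 rose and 1 fell, with a median log2 fold change of 3.52. Dbx1 (ENSMUSG00000030507, chromosome 7 from 56886869 to 56892219), which marks a progenitor domain of ventral interneurons, went from 0.108, 0.0787 and 0 to 74.1, 86.7 and 16.4 CPM (log2 fold change 9.63, SE 0.99, FDR 0.00025). Prdm12, a factor of the same cord region and of sensory neurons, had 1 count in all in the EBs libraries and 7.16, 9.05 and 5.87 CPM in EBs + RA, a ratio of 719.8-fold (95% interval of the counts 129 to 28475). Domain genes of both the dorsal and the ventral cord were among those that rose. The dorsal Pax7 went from 0.452, 0.433 and 0.486 to 4.16, 3.27 and 2.16 CPM (log2 fold change 2.80, SE 0.33, FDR 0.00018). Irx3, broadly expressed in the ventral cord, went from 2.04, 3.54 and 1.34 to 43.9, 53.6 and 22.6 CPM (log2 fold change 4.13, SE 0.43, FDR 0.00013). The ventral Nkx6-1 went from 1.46, 1.65 and 0.448 to 3.63, 2.74 and 2.70 CPM (log2 fold change 1.33, SE 0.42, FDR 0.026), and did not pass without clone #1 (FDR 0.13). Olig2, of motor neuron progenitors, reached only 1.55, 0.571 and 0.742 CPM, 32.0-fold (95% interval of the counts 10.6 to 158) the level in EBs. Nkx2-2, of the most ventral domain, was too low to be tested. Egr2, which marks hindbrain segments known as rhombomeres 3 and 5, stayed below 1 CPM in both groups (FDR 0.95).

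Genes of the forebrain were mostly low. Of 18 forebrain and eye genes only 9 passed the filter on low counts, 5 of them rose and 3 fell, so the members tested are not the whole list. Otx2 (ENSMUSG00000021848, chromosome 14 from 49277354 to 49287319), which marks the forebrain and midbrain and also the epiblast, fell from 57.7, 49.2 and 57.2 to 0.330, 0.304 and 0.304 CPM (log2 fold change −7.43, SE 0.18, FDR 5.7e-08), with the 3 clones almost equal. Six3, Rax, Fezf2, Nkx2-1 and Vax1 stayed below 1 CPM in all 6 libraries. Some genes on the list nonetheless rose: Emx2 went from 0.323, 0.433 and 0.336 to 13.2, 9.51 and 14.4 CPM (log2 fold change 5.09, SE 0.28, FDR 3.3e-06), and Lhx2 from 0.818, 0.905 and 0.710 to 10.5, 12.0 and 18.0 CPM (log2 fold change 4.05, SE 0.28, FDR 1e-05). Both are also known outside the brain, Emx2 in the urogenital system and Lhx2 in limb and liver. At the boundary of midbrain and hindbrain, where Wnt1 and Fgf8 are made side by side, these 2 signals moved in opposite directions. Wnt1 (ENSMUSG00000022997, chromosome 15 from 98620288 to 98624268) had no count in EBs and 17.6, 11.1 and 4.62 CPM in EBs + RA, at least 367-fold higher against a floor of 3 counts over the group. Fgf8, which in EBs is also a gene of the primitive streak, went from 36.3, 59.1 and 54.6 to 0.0330, 0.152 and 0.101 CPM (log2 fold change −9.01, SE 0.36, FDR 1e-06). Of the 12 genes of that boundary 11 were tested, 5 rose and 3 fell, and En1, En2 and Spry1 did not pass.

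Most of the listed proneural genes, basic helix-loop-helix factors of neuronal differentiation, were close to silent without RA. Of 12 listed genes 8 were tested and all 8 rose, with a median log2 fold change of 7.88, or 7.48 with the gene that had no count in EBs set at its bound; Neurog3, Atoh1, Neurod2 and Neurod6 did not pass the filter and were below 1 CPM throughout. Neurog2 (ENSMUSG00000027967, chromosome 3 from 127336054 to 127338549) had 1 count in the 3 EBs libraries together and 14.0, 13.3 and 5.47 CPM in EBs + RA, a ratio of 1070-fold (95% interval of the counts 192 to 42306). Neurog1 went from 0.0430, 0.118 and 0.0374 to 18.3, 17.8 and 8.10 CPM (log2 fold change 7.82, SE 0.52, FDR 1e-05). Nhlh2, expressed in newly born neurons, went from 0.129, 0.0394 and 0.112 to 37.8, 37.7 and 20.1 CPM (log2 fold change 8.25, SE 0.41, FDR 2.7e-06). The related Nhlh1 rose by a ratio of 279-fold (95% interval of the counts 95.0 to 1355). Neurod4 had no count without RA and was at least 142-fold higher with it, at 5.67, 4.37 and 2.90 CPM. Clone #7 had the lowest EBs + RA level in 8 of 8 of these genes, against 45% of all raised genes. The 12 listed genes summed to 24.6, 25.4 and 20.1 CPM in EBs and 143, 150.5 and 78.8 CPM in EBs + RA. Hes6 was the weakest of them (log2 fold change 0.53, SE 0.22, FDR 0.074) and did not pass in 5 of 6 fits without 1 library (every one but EBs + RA of clone #7, FDR up to 0.277).

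Genes of differentiated neurons rose by less. Of 31 genes 26 were tested, 19 rose and 4 fell, with a median log2 fold change of 1.90. Dcx, the doublecortin of migrating young neurons, rose from 0.409, 0.315 and 0.262 to 33.3, 27.4 and 26.2 CPM (log2 fold change 6.40, SE 0.23, FDR 4.7e-07). Tubb3, the neuronal β-tubulin, rose from 32.0, 31.4 and 17.1 to 113, 124 and 62.8 CPM (log2 fold change 1.90, SE 0.31, FDR 0.0016). Elavl3, an RNA-binding protein of postmitotic neurons, rose from 2.47, 3.50 and 3.40 to 28.5, 33.7 and 16.9 CPM (log2 fold change 3.09, SE 0.28, FDR 4.7e-05). Rbfox3, the mature neuronal marker NeuN, stayed below 3 CPM although it rose (log2 fold change 1.33, SE 0.31, FDR 0.0069). Of genes that define transmitter types, Chat and Slc17a6 were under 1 CPM in every library and were not tested, and Gad1 fell from 4.02, 5.08 and 6.84 to 0.693, 1.18 and 0.776 CPM (log2 fold change −2.59, SE 0.32, FDR 0.00021). Stmn2, known from growing axons but read at 328, 296 and 319 CPM in these mESCs, fell from 69.0, 71.7 and 82.0 to 17.2, 17.0 and 12.8 CPM (log2 fold change −2.24, SE 0.14, FDR 7.2e-06). The motor neuron factor Mnx1 rose from 1.23, 1.06 and 0.859 to 4.98, 5.21 and 1.65 CPM (log2 fold change 1.89, SE 0.43, FDR 0.0064), whereas Isl1 was at 5.64, 5.35 and 4.67 CPM in EBs and 3.56, 4.34 and 1.86 CPM in EBs + RA (log2 fold change −0.69, SE 0.31, FDR 0.091) and kept its call in only 1 of 6 fits without 1 library, that without EBs + RA of clone #4 (log2 fold change in the others −0.77 to −0.41).

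Neural crest genes moved both ways. All 24 listed genes were tested, 14 rose and 6 fell, with a median log2 fold change of 1.32. Tfap2b rose most, from 0.0430, 0.197 and 0.224 to 26.5, 21.0 and 8.30 CPM (log2 fold change 7.05, SE 0.64, FDR 7e-05). The dorsal neural tube gene Pax3 went from 0.796, 1.42 and 1.20 to 20.6, 16.4 and 6.82 CPM (log2 fold change 3.71, SE 0.44, FDR 0.00026). Sox9, which acts early in the crest and later in cartilage, went from 2.69, 3.78 and 1.57 to 30.9, 35.6 and 33.7 CPM (log2 fold change 3.64, SE 0.27, FDR 1.8e-05). Ednrb, the endothelin receptor of migrating crest, went from 0.387, 0.433 and 0.336 to 25.7, 19.5 and 11.4 CPM (log2 fold change 5.60, SE 0.37, FDR 8.6e-06). Among the members that fell was Foxd3, from 15.7, 20.4 and 10.6 to 0.363, 0.456 and 1.35 CPM (log2 fold change −4.41, SE 0.48, FDR 0.00016). Foxd3 also acts in pluripotent cells, and in mESCs it stood at 14.5, 16.7 and 27.5 CPM. Erbb3, a receptor gene of migrating crest, fell too, as did Msx2, Tfap2c and Mitf, Mitf with a call lost in 8 of 18 alternative analyses. Sox10, the defining factor of migrating crest, was at 1.25, 0.826 and 2.39 CPM in EBs and 1.02, 1.79 and 4.15 CPM in EBs + RA and did not pass (FDR 0.37). Snai1 and Ets1 differed by less than 0.1 on the log2 scale.

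**Figure D4:**
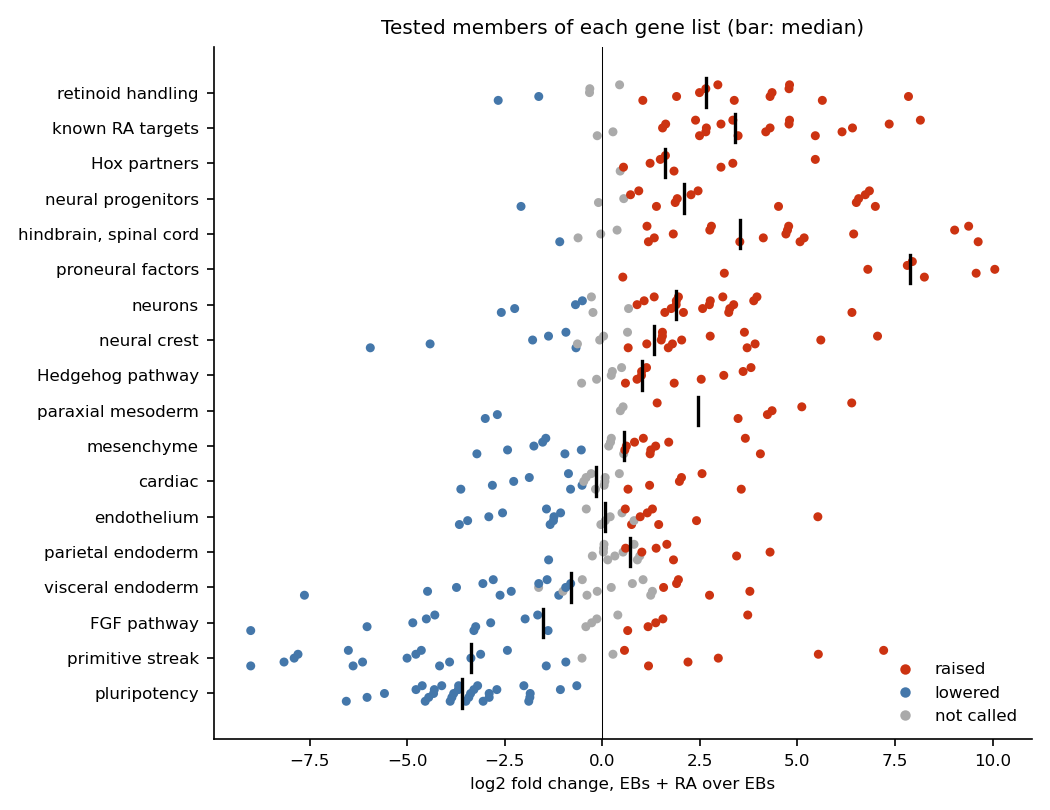
Log2 fold change of EBs + RA over EBs (x axis) of every tested member of the gene lists (y axis), with 1 point per gene and a bar at each list's median. The medians run from −3.59 for the pluripotency list to 7.88 for the proneural list, and the median of all tested genes is 0.01.

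Genes of the pluripotent state fell. All 30 were tested and all 30 fell, with a median log2 fold change of −3.59, where 20.7% of all tested genes fell. Summed over the list, the level was 6955, 6669 and 6851 CPM in EBs and 582, 669 and 855 CPM in EBs + RA, beside 10990, 11480 and 11550 CPM in mESCs. EBs of day 8 without RA thus lay between mESCs and EBs + RA, nearer to mESCs. Pou5f1 (ENSMUSG00000024406, chromosome 17 from 35642982 to 35647721), which encodes Oct4, stood at 892, 890.0 and 898 CPM in mESCs, 424, 403 and 405 CPM in EBs and 12.6, 17.3 and 20.5 CPM in EBs + RA (log2 fold change −4.61, SE 0.18, FDR 8.5e-07). Nanog stood at 687, 722 and 832, at 333, 339 and 402 and at 11.3, 22.4 and 15.7 CPM in the same order (log2 fold change −4.45, SE 0.25, FDR 6.2e-06). Trh, the precursor of thyrotropin-releasing hormone and an early mouse marker of undifferentiated cells, fell most, from 446, 354 and 222 to 3.40, 3.27 and 4.15 CPM (log2 fold change −6.56, SE 0.30, FDR 2.9e-06). The Nodal co-receptor gene Tdgf1 fell from 339, 344 and 424 to 6.47, 5.06 and 11.5 CPM (log2 fold change −5.58, SE 0.31, FDR 7e-06). Fgf5, a marker of the epiblast that follows the naive state, was higher in EBs than in mESCs, where it was below 1 CPM, and fell from 21.9, 19.9 and 29.6 to 2.67, 2.74 and 1.89 CPM with RA (log2 fold change −3.29, SE 0.23, FDR 1e-05). Klf4 was the weakest, from 41.5, 48.1 and 39.3 to 23.8, 22 and 36.1 CPM (log2 fold change −0.65, SE 0.19, FDR 0.019), and did not pass without clone #1 (FDR 0.138) or without clone #4 (FDR 0.149).

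Most genes of the primitive streak and early mesoderm were lower with RA. Of 25 genes, all tested, 17 fell and 6 rose, with a median log2 fold change of −3.37, and together they summed to 672, 617 and 689.7 CPM in EBs and 155, 186 and 144 CPM in EBs + RA. T (ENSMUSG00000062327, chromosome 17 from 8627288 to 8635361), which encodes Brachyury, the defining factor of the streak and the notochord, fell from 71.2, 71.6 and 119 to 0.429, 0.342 and 0.135 CPM (log2 fold change −8.15, SE 0.37, FDR 2.4e-06). Mixl1 fell from 106, 66.2 and 109 to 0.264, 0.304 and 0.675 CPM (log2 fold change −7.80, SE 0.34, FDR 2.2e-06), and Eomes, of the anterior streak and the endoderm, from 113, 87.2 and 119.9 to 2.67, 3.58 and 3.75 CPM (log2 fold change −5.0, SE 0.19, FDR 5.7e-07). All 3 genes were lower in mESCs than in EBs, with T at 1.10, 0.877 and 0.673 CPM. The tail bud factors went the same way. Evx1 fell from 33.8, 25.8 and 32.1 to 0.528, 0.456 and 0.304 CPM (log2 fold change −6.14, SE 0.24, FDR 6.9e-07), Cdx2 from 84.5, 77.5 and 49.5 to 3.73, 2.17 and 1.79 CPM (log2 fold change −4.78, SE 0.32, FDR 1.4e-05). Nkx1-2, of the precursors shared by cord and trunk mesoderm, fell from 22.5, 16.6 and 6.69 to 2.28, 1.52 and 0.641 CPM (log2 fold change −3.37, SE 0.55, FDR 0.0014). Mesp1, of the earliest cardiac mesoderm, was left with 1 count over the 3 EBs + RA libraries, from 2.69, 2.64 and 5.87 CPM in EBs, a level 305-fold (95% interval of the counts 54.4 to 12080) higher without RA. The members that rose included the ligand gene Wnt3a, whose call was lost in 5 of 18 alternative analyses, and genes known from later mesoderm. Foxc2 went from 0.387, 0.708 and 0.224 to 48.9, 78.3 and 65.2 CPM (log2 fold change 7.21, SE 0.33, FDR 2.1e-06). Osr1, of the intermediate mesoderm, went from 0.172, 0.236 and 0.262 to 11.0, 11.8 and 7.83 CPM (log2 fold change 5.54, SE 0.31, FDR 3.6e-06).

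Mesoderm derivatives did not share a direction. Among 14 genes of paraxial mesoderm and somites 10 were tested, 6 rose and 2 fell. Tbx18 rose from 0.215, 0.236 and 0.448 to 18.7, 25.2 and 29.8 CPM (log2 fold change 6.39, SE 0.32, FDR 2.2e-06), and Meox1, of the somites, from 1.01, 0.669 and 1.27 to 33.2, 36.3 and 33.5 CPM (log2 fold change 5.11, SE 0.22, FDR 1.1e-06). Tcf15, known from somites but also at 21.3, 22.2 and 19.0 CPM in mESCs, fell from 11.2, 11.7 and 11.7 to 1.68, 1.83 and 1.86 CPM (log2 fold change −2.69, SE 0.18, FDR 9.6e-06). Myf5, of skeletal muscle precursors, was at or near 0. Of 25 cardiac genes 21 were tested, 6 rose (28.6%) and 7 fell (33.3%), beside 23.3% and 20.7% of all tested genes, with a median of −0.17. Tbx5, of the posterior heart field and the atria, rose from 0.237, 0.157 and 0.336 to 2.74, 2.40 and 3.61 CPM (log2 fold change 3.56, SE 0.35, FDR 6.8e-05), while Tbx20 fell from 8.91, 6.49 and 7.85 to 0.660, 0.609 and 0.607 CPM (log2 fold change −3.62, SE 0.25, FDR 9.7e-06). Of the contractile genes that define cardiomyocytes, Tnnt2 and Myh6 were low in both groups and fell, and Myl7 did not pass. Tnnt2 stood at 1.66, 1.06 and 1.31 CPM in EBs and 0.693, 0.723 and 0.810 CPM in EBs + RA, and Myh6 at 2.86, 2.68 and 2.35 and 0.561, 0.647 and 0.945 CPM. Other contractile genes moved both ways: Myh7 and Ttn fell, and Myl4 and Myl3 rose, Myl3 with a call lost in 9 of 18 alternative analyses. Actc1, Actn2, Tnni1 and Myl2 did not pass. Without clone #1 the number of lowered cardiac genes went from 7 to 4.

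Endothelial and blood genes likewise divided. All 23 endothelial genes were tested, 8 rose and 9 fell, with a median log2 fold change of 0.08. Etv2, which starts the blood and vessel program, fell from 4.84, 5.27 and 4.71 to 0.231, 0.837 and 0.304 CPM (log2 fold change −3.45, SE 0.42, FDR 0.00021). The VEGF receptor gene Kdr, also of early mesoderm, fell from 43.7, 31.1 and 39.2 to 18.1, 15.1 and 15.3 CPM (log2 fold change −1.24, SE 0.16, FDR 0.00025). Pecam1, which mESCs express at 79.3, 60.2 and 80.9 CPM, fell from 41.5, 42.4 and 38.8 to 4.49, 6.73 and 5.16 CPM (log2 fold change −2.91, SE 0.17, FDR 4.5e-06). Cdh5, the cadherin of the endothelium itself, was instead at 3.55, 6.65 and 1.94 CPM in EBs and 9.14, 9.74 and 8.03 CPM in EBs + RA (log2 fold change 1.15, SE 0.38, FDR 0.034), a call lost without EBs of clone #1 (FDR 0.102) or without clone #1 (FDR 0.194). Without clone #1 the raised endothelial genes numbered 4 in place of 8. Globin genes were near 0 in both groups, with Hbb-bh1 at 0.796, 2.36 and 0 CPM in EBs and no count in EBs + RA, and 9 of the 20 erythroid genes were tested (2 rose, 5 fell). Runx1, of blood-forming endothelium, fell from 30.6, 29.8 and 15.4 to 5.57, 3.42 and 6.34 CPM (log2 fold change −2.30, SE 0.32, FDR 0.00052). Of 18 macrophage genes only 5 were tested, of which Cd14 rose and Itgam and Laptm5 fell, and the list summed to 36.2, 39.5 and 37.0 CPM in EBs and 20.1, 17.4 and 27.1 CPM in EBs + RA. Laptm5, a lysosomal membrane gene of blood cells, went from 18.4, 15.0 and 12.9 to 1.88, 1.22 and 2.46 CPM (log2 fold change −3.05, SE 0.28, FDR 4.1e-05), and Cd68 and Csf1r did not pass (FDR 0.36 and 0.14). The defining markers Ptprc, C1qa, C1qb and C1qc were below 0.1 CPM in all 6 libraries.

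Mesenchymal and smooth muscle genes, 21 of 22 tested, rose in 10 cases and fell in 7. Col3a1, a fibrillar collagen, rose from 9.14, 12.0 and 2.80 to 100.0, 97.3 and 108 CPM (log2 fold change 3.67, SE 0.44, FDR 0.00041), whereas Fn1, the fibronectin gene, fell from 1669, 1435 and 1214 to 278, 253 and 271 CPM (log2 fold change −2.43, SE 0.13, FDR 3e-06). Without clone #1 the list counted 5 rises and 4 falls.

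Extraembryonic endoderm genes differed between the clones. Of 27 visceral endoderm genes, all tested, 5 rose and 12 fell, with a median log2 fold change of −0.81. Cer1, a secreted Nodal and Wnt inhibitor of the anterior visceral endoderm, had 2.86, 3.15 and 3.33 CPM in EBs and 1 count in the 3 EBs + RA libraries, a level 264-fold (95% interval of the counts 47.0 to 10458) higher without RA. Spink3 fell from 79.2, 71.0 and 86.2 to 2.84, 1.48 and 6.21 CPM (log2 fold change −4.48, SE 0.43, FDR 0.00011). Amn, whose product takes up proteins together with cubilin, fell from 20.7, 21.6 and 17.5 to 1.06, 0.761 and 2.63 CPM (log2 fold change −3.74, SE 0.40, FDR 0.00015). The fibrinogen gene Fgb rose from 4.02, 2.75 and 7.06 to 15.3, 8.94 and 68.5 CPM (log2 fold change 2.75, SE 0.80, FDR 0.026), most of it in clone #7. Foxa1 rose from 7.87, 9.56 and 4.37 to 34.9, 36.7 and 12.9 CPM (log2 fold change 1.95, SE 0.43, FDR 0.0063), with clone #7 the lowest.

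The defining products of visceral endoderm varied with the clone in both groups. Afp, α-fetoprotein, stood at 84.1, 43.3 and 207 CPM in EBs and at 19.5, 11.7 and 76.7 CPM in EBs + RA, and the groups overlapped because clone #7 was the highest in each. It did not pass without the clone in the model (log2 fold change −1.63, SE 0.88, FDR 0.18), and did with the clone as a block (log2 fold change −1.80, FDR 5.3e-05), since it was lower with RA in 3 of 3 clones. Ttr, the transthyretin that carries retinol with Rbp4, stood at 59.8, 36.8 and 81.8 and 12.6, 7.49 and 37.6 CPM (log2 fold change −1.63, SE 0.59, FDR 0.057), a call that was lost without EBs of clone #7 (FDR 0.12) or without clone #1 (FDR 0.186). Apob, of lipoproteins, stood at 128, 57.9 and 202 and 10.2, 3.8 and 41.8 CPM (log2 fold change −2.79, SE 0.94, FDR 0.051) and was lost under the same omissions (FDR 0.104 and 0.114). Apoa1 was at 20.9, 13.9 and 33.3 CPM in EBs and 22.8, 9.74 and 83.6 CPM in EBs + RA (FDR 0.42). Rbp4 went the other way, from 37.2, 19.8 and 53.3 to 109.6, 58.5 and 245 CPM (log2 fold change 1.90, SE 0.57, FDR 0.028), and did not pass without EBs + RA of clone #7 (FDR 0.14) or without clone #7 (FDR 0.128). With the clone as a block the list counted 7 rises and 15 falls, adding among others Apoa2, Trf, Hnf4a and Cubn.

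Parietal endoderm genes tended upward. Of 18, all tested, 7 rose and 1 fell, with a median log2 fold change of 0.71. Plat, the tissue plasminogen activator, rose from 17.1, 19.6 and 14.3 to 163, 179 and 213 CPM (log2 fold change 3.44, SE 0.15, FDR 1.4e-06), and the parathyroid hormone receptor gene Pth1r from 39.2, 34.4 and 38.7 to 125, 112 and 116 CPM (log2 fold change 1.65, SE 0.10, FDR 5.5e-06), both evenly across clones. The basement membrane genes were uneven. Lama1 went from 119.7, 111 and 179.5 to 297, 197 and 572 CPM (log2 fold change 1.38, SE 0.38, FDR 0.019). Col4a1 stood at 492, 431 and 518 and 712, 407 and 1565 CPM and did not pass (FDR 0.13). The endodermal factor Gata6 rose from 22.3, 23.7 and 21.4 to 49.1, 44.0 and 107 CPM (log2 fold change 1.57, SE 0.32, FDR 0.0044). With RA, the 18 genes summed to 4202, 2942 and 7757 CPM, against 3089, 3041 and 3350 CPM without, and clone #7 was the highest of the 3 in both groups. The number raised was 7 in all 6 libraries, ranged from 4 to 12 when 1 library or clone was left out, was 10 with the clone as a block and was 3 with no filter on low counts, where Lama1 did not pass (FDR 0.118) and the visceral endoderm list had 2 raised and 7 lowered genes. Clone #7 was the highest of the EBs + RA libraries for 6 of these 7 genes and for 4 of the 5 raised visceral endoderm genes, against 37.5% of all raised genes, and the lowest for 11 of 13 raised neural progenitor genes, against 45% of all raised genes. The part of endodermal cells in the lower neural levels of that clone was not tested.

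**Figure D5:**
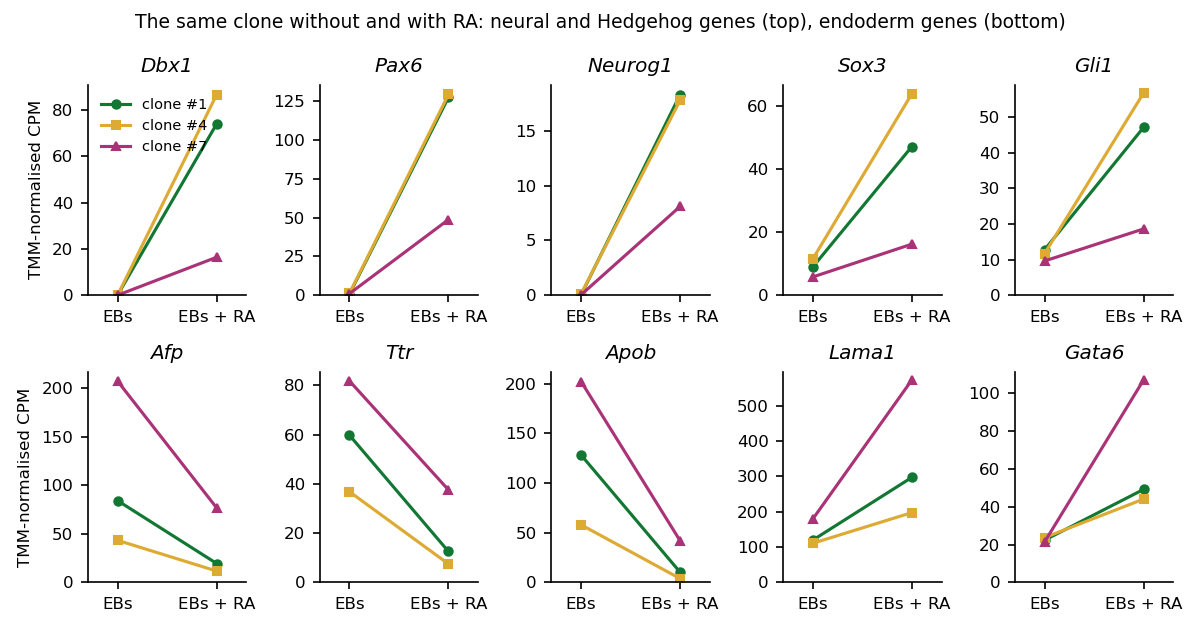
Level in each library (y axis, CPM) of neural and Hedgehog genes (top) and of endoderm genes (bottom), with lines joining EBs and EBs + RA (x axis) of the same clone. With RA, clone #7 is the lowest for Dbx1 at 16.4 CPM and the highest for Afp at 76.7 CPM, and it is the highest for Afp without RA as well.

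The signalling genes showed where the treated EBs differed in the pathways that pattern them. In the Fgf pathway 20 genes were tested, 5 rose and 11 fell, with a median log2 fold change of −1.52. The ligands of the streak and of pluripotent cells fell: besides Fgf8 and Fgf5, Fgf4 went from 92.4, 81.0 and 85.6 to 1.06, 1.86 and 1.08 CPM (log2 fold change −6.03, SE 0.21, FDR 4.7e-07). Fgf10 went from 44.0, 33.5 and 32.5 to 4.19, 3.08 and 4.32 CPM (log2 fold change −3.24, SE 0.19, FDR 5.2e-06). Genes that Fgf signalling itself induces fell with them. The transcription factor gene Etv5 went from 473, 416 and 409 to 20.6, 22.7 and 22.9 CPM (log2 fold change −4.29, SE 0.11, FDR 9.8e-08). The feedback inhibitor Spry4 went from 45.4, 41.0 and 44.2 to 1.52, 2.13 and 2.09 CPM (log2 fold change −4.51, SE 0.17, FDR 5.7e-07). Dusp6, another such gene, did not pass (FDR 0.19). On the receptor side Fgfr2 rose from 37.4, 33.0 and 31.8 to 111, 111 and 78.2 CPM (log2 fold change 1.55, SE 0.15, FDR 6e-05), as did Fgfr3, while Fgfr1 did not pass. The ligand Fgf9 rose from 0.194, 0.197 and 0.149 to 3.17, 2.09 and 2.09 CPM (log2 fold change 3.73, SE 0.35, FDR 5e-05).

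Wnt genes were divided, with 10 raised and 11 lowered of 25 tested from a list of 28. Wnt3, the ligand that starts the streak, fell from 41.2, 31.0 and 32.2 to 1.68, 1.67 and 0.844 CPM (log2 fold change −4.64, SE 0.27, FDR 4.7e-06). Wnt5a fell from 113, 87.2 and 53.9 to 9.66, 12.7 and 18.0 CPM (log2 fold change −2.65, SE 0.31, FDR 0.00027). Of the pathway's targets, Lef1, Axin2, Sp5 and Notum fell as well, Lef1 from 110.2, 88.1 and 62.0 to 18.4, 13.9 and 10.2 CPM (log2 fold change −2.61, SE 0.27, FDR 0.00013), and Sp5 did not pass without clone #4 (FDR 0.109). The target Nkd1 rose instead, a call lost in 6 of 18 alternative analyses. Apart from Wnt1, the rises included Wnt4, from 21.6, 22.5 and 12.0 to 43.5, 42.0 and 61.6 CPM (log2 fold change 1.39, SE 0.25, FDR 0.0023), and the secreted inhibitor Sfrp1, from 18.6, 19.6 and 30.0 to 210.0, 155 and 178 CPM (log2 fold change 3.0, SE 0.21, FDR 1.4e-05), whereas the inhibitor Dkk1 fell from 44.7, 43.1 and 30.1 to 6.04, 5.48 and 7.66 CPM (log2 fold change −2.62, SE 0.20, FDR 1.8e-05). Lgr5, a receptor of R-spondins and a Wnt target elsewhere, rose from 9.40, 8.70 and 2.58 to 39.6, 34.3 and 12.3 CPM (log2 fold change 2.05, SE 0.56, FDR 0.018).

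In the Bmp pathway, 10 of 21 tested genes rose and 6 fell. The ligands Bmp4 and Bmp2 fell. Bmp4 went from 68.6, 72.6 and 50.4 to 8.35, 7.42 and 5.4 CPM (log2 fold change −3.18, SE 0.20, FDR 8.1e-06), and Bmp2 from 31.1, 34.5 and 20.5 to 4.59, 4.11 and 4.49 CPM (log2 fold change −2.71, SE 0.21, FDR 2e-05). The ligand Bmp7 moved up instead, from 20.3, 21.0 and 20.4 to 45.6, 40.9 and 28.6 CPM (log2 fold change 0.90, SE 0.17, FDR 0.0022). Targets of the pathway moved in different directions: Id2 rose from 50.9, 60.6 and 61.4 to 255, 284 and 241 CPM (log2 fold change 2.17, SE 0.11, FDR 2.8e-06), Id1 did not pass (FDR 0.47), and Msx2 fell from 76.4, 86.1 and 63.0 to 27.7, 30.7 and 28.3 CPM (log2 fold change −1.38, SE 0.13, FDR 5.2e-05). Gdf11, of the tail and spinal cord, rose from 6.48, 7.56 and 4.74 to 51.5, 45.0 and 44.5 CPM (log2 fold change 2.91, SE 0.18, FDR 6.1e-06).

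Hedgehog genes rose together. Of 15, all tested, 10 rose and none fell, with a median log2 fold change of 1.01. The co-receptor gene Gas1 rose most, from 20.6, 20.3 and 16.6 to 288, 266 and 255 CPM (log2 fold change 3.81, SE 0.12, FDR 3.1e-07). The co-receptor gene Boc rose from 6.88, 6.77 and 6.46 to 69.0, 65.9 and 39.3 CPM (log2 fold change 3.11, SE 0.22, FDR 1.3e-05). Of the pathway's own targets, Gli1 rose from 12.8, 11.7 and 9.60 to 47.1, 56.8 and 18.6 CPM (log2 fold change 1.84, SE 0.37, FDR 0.0042) and Hhip from 0.538, 0.472 and 0.523 to 9.73, 6.16 and 3.04 CPM (log2 fold change 3.61, SE 0.45, FDR 0.00025), but Ptch1 was a weak call (log2 fold change 0.59, SE 0.23, FDR 0.059) that held in 2 of 6 fits without 1 library, those without EBs of clone #1 or EBs + RA of clone #7 (FDR in the others up to 0.21). The ligand gene Shh remained low, from 0.581, 0.118 and 0.224 to 3.40, 1.86 and 0.641 CPM (log2 fold change 2.53, SE 0.69, FDR 0.016). Clone #7 was the lowest in all 10 raised genes among EBs + RA, against 45% of all raised genes.

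Of 18 Notch genes, all tested, 7 rose and 5 fell. Beside Hes5, the ligand Dll1 rose from 4.71, 4.96 and 3.92 to 27.6, 26.0 and 8.77 CPM (log2 fold change 2.20, SE 0.40, FDR 0.0025), with clone #7 the lowest again. Heyl, a target of the pathway, rose from 0.452, 0.708 and 0.336 to 4.85, 5.25 and 3.54 CPM (log2 fold change 3.19, SE 0.33, FDR 8.8e-05). Among further targets Hey1 rose, while Hey2 and Nrarp fell, and Nrarp did not pass without clone #1. The receptor genes Notch3 and Notch4 fell. Notch4 went from 13.8, 14.7 and 16.0 to 4.42, 5.78 and 3.51 CPM (log2 fold change −1.70, SE 0.21, FDR 0.00022), while Notch1 and Notch2 stayed within 0.5 on the log2 scale. Hes1, in contrast to Hes5, stood at 52.4, 53.3 and 53.8 CPM in EBs and 53.7, 54.6 and 40.7 CPM in EBs + RA (FDR 0.55).

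Some of the genes that moved furthest belong to none of the lists. Sst (ENSMUSG00000004366, chromosome 16 from 23889667 to 23890930), which encodes the neuropeptide somatostatin, had no count in EBs and 18.5, 13.8 and 6.28 CPM in EBs + RA, at least 423-fold higher. Zfp804a, a zinc finger gene of the brain, had no count in EBs either and 6.70, 10.2 and 12.7 CPM with RA, at least 323-fold higher. Unlike Sst, its level was highest in clone #7. Cxcl15, a chemokine gene, went from 0.0430, 0 and 0.0747 to 16.6, 11.2 and 2.94 CPM (log2 fold change 7.85, SE 0.92, FDR 0.00026). The long noncoding transcript D930007P13Rik (ENSMUSG00000086435, chromosome 15 from 102953501 to 102977259) went from 0.108, 0 and 0 to 14.3, 17.5 and 8.20 CPM (log2 fold change 7.96, SE 0.63, FDR 2.6e-05). At the other end, Vrtn (ENSMUSG00000071235, chromosome 12 from 85981969 to 85992405), a gene known for its effect on vertebral number, fell from 77.5, 67.9 and 79.4 to 0.0990, 0.114 and 0.202 CPM (log2 fold change −9.03, SE 0.21, FDR 5.7e-08), in 3 of 3 clones alike. Tcl1, of pluripotent cells, fell from 11.8, 14.5 and 19.7 to 0.132, 0.266 and 0.472 CPM (log2 fold change −5.70, SE 0.39, FDR 1.1e-05). Alox15, a lipoxygenase gene, fell from 20.5, 20.4 and 47.8 to 0.264, 0.647 and 0.945 CPM (log2 fold change −5.57, SE 0.52, FDR 8e-05). Nphs1, which encodes the nephrin of kidney podocytes, fell from 38.9, 35.1 and 25.7 to 1.02, 1.18 and 0.439 CPM (log2 fold change −5.24, SE 0.33, FDR 7e-06). Its antisense gene overlaps it by 3428 bases, and the transcript 5730457N03Rik, which also fell far, overlaps Evx1 by 1335 bases on the opposite strand, so that these reads cannot be split between the partners.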

How the data were processed

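The authors made libraries from poly(A) RNA with a kit that keeps no strand, sequenced them for 51 cycles, aligned the reads to NCBIM37 with TopHat 2.0.9 and Bowtie2 2.1.0, and deposited raw counts per Ensembl gene from HTSeq 0.5.4, with no normalization. The strand setting of the counting is not given in the sources used here. Rows that name no gene held 21.8% to 24% of each library and were left out. Gene names and positions came from GENCODE vM1 (37205 of 37991 identifiers).

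Here counts of the 6 libraries were filtered with filterByExpr, scaled by TMM and compared with edgeR 4.0.16 (R 4.3.3, limma 3.58.1) by the quasi-likelihood test in its robust form, and p-values were adjusted by Benjamini-Hochberg over the 15919 genes tested. The limits, FDR below 0.1 and a log2 fold change beyond 0.5, are those of the study. CPM were scaled over the 6 libraries, and mESC levels over all 9 control libraries. The scripts were tested on simulated data. Same-numbered libraries of the 2 groups come from the same clone by their labels, and their deviations from the group means correlated (r = 0.264, 0.228 and 0.324 in clones #1, #4 and #7, against −0.249 to 0.0716 between clones). Libraries of a group differed by more than counting noise (chi-squared per degree of freedom 22.8 to 70.5).

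Genes named were the 15 largest rises and 15 largest falls among genes called with a mean of at least 2 log2 CPM and no overlap between groups, markers the study names, and members of 34 lists, led by the largest changes. Members and lists were chosen with earlier results of these data known. Folds against groups with no count used a floor of 3 counts over the group, and intervals cover counting error only. Promoters came from RefSeq (GRCm38.p6). Sox1, Slc18a3 and Psx1 were not analysed here, and some members of the lists are counted but not reported one by one. Alternatives were RLE factors, library totals, 2 other filters, DESeq2 1.42.0, the clone as a block, other limits, all 9 control libraries in 1 fit, and leaving out each library and each clone.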

Additional observations from a re-analysis of the deposited data

How the results depend on the processing

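The 7019 calls (3717 raised, 3302 lowered) ranged from 5895 to 7736 with other tests, scalings, filters or an FDR limit of 0.05, and DESeq2 gave 7358. Without 1 library they ranged from 6683 to 7502 (3532 to 3787 raised, 3151 to 3715 lowered), and without 1 clone from 5744 to 7387 (3064 to 3788 raised, 2680 to 3599 lowered). A log2 limit of 1 left 3987 calls, 2218 raised and 1769 lowered. With library totals in place of TMM the median of all genes shifted by 0.12 on the log2 scale and 4439 genes rose and 2661 fell. With the clone as a replicate block, the paired fit, 7285 genes were called, 3821 raised and 3464 lowered, and this fit moved no count over all genes by more than 1.5 times. No called value of a named gene changed sign under any alternative. Of 413 named genes called, 314 were called in each of the 18 alternatives in which they were tested, and 230 were tested and called in all 18. Requiring 10 counts in every library removes genes near 0 in either group by construction. With no filter on low counts 25 of the 542 named genes tested lost their call. Among them were Rbp4, Ttr, Hoxd1, Apob, Fgb, Lama1, Ptch1, Lgr5 and Ccnd1 (FDR 0.116 to 0.2 for those named here). In the same fit 2 visceral and 3 parietal endoderm genes were raised in place of 5 and 7, and the cause was not tested. Genes below 1 CPM rest on few counts, so their changes have large errors. Without 1 library, raised parietal endoderm genes numbered 4 (without EBs of clone #4 or EBs + RA of clone #7) or 12 (without EBs + RA of clone #4) in place of 7, raised visceral endoderm genes 8 in place of 5 (without EBs + RA of clone #4), lowered neuronal genes 2 in place of 4 (without EBs of clone #1 or EBs + RA of clone #7), and lowered forebrain genes 1 in place of 3 (without EBs of clone #1 or EBs + RA of clones #1 or #4). Without clone #1, raised mesenchymal genes numbered 5 in place of 10, lowered mesenchymal genes 4 in place of 7, raised endothelial genes 4 in place of 8 and lowered cardiac genes 4 in place of 7.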

Other observations

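Germline genes did not follow Stra8. Of 19, 17 were tested, 2 rose and 10 fell, with a median log2 fold change of −0.99. The meiotic cohesin gene Rec8 rose beside Stra8, from 9.66, 10.2 and 12.4 to 77.7, 86.9 and 129.9 CPM (log2 fold change 3.19, SE 0.21, FDR 1.1e-05). Of the synaptonemal complex genes Sycp1 and Sycp3 fell and Syce1 did not pass (FDR 0.37), with Sycp3 from 13.3, 12.0 and 16.7 to 2.64, 2.09 and 5.23 CPM (log2 fold change −2.07, SE 0.33, FDR 0.00098). Prdm1, of primordial germ cells, fell from 25.6, 26.7 and 21.0 to 3.50, 5.33 and 3.85 CPM (log2 fold change −2.54, SE 0.20, FDR 2.1e-05). Dazl did not pass (FDR 0.96). Of 16 trophoblast genes 14 were tested, 8 rose and 2 fell. Elf5 rose from 0.947, 0.787 and 1.01 to 3.89, 3.08 and 6.58 CPM (log2 fold change 2.30, SE 0.34, FDR 0.00058), and the X-linked homeobox gene Rhox6 from 19.6, 32.5 and 20.1 to 107, 101 and 148 CPM (log2 fold change 2.31, SE 0.23, FDR 0.00011). The trophoblast giant cell gene Prl3d1 stayed below 3 CPM (FDR 0.31).

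Cell cycle genes were lower by small amounts: of 18, all tested, 10 fell and 1 rose, with a median log2 fold change of −0.58. The exception was the cyclin gene Ccnd2, from 28.7, 17.7 and 23.8 to 536, 413 and 196 CPM (log2 fold change 4.02, SE 0.39, FDR 0.00013), whose relative Ccnd1 fell from 120.5, 85.2 and 81.5 to 63.4, 41.4 and 24.9 CPM (log2 fold change −1.15, SE 0.32, FDR 0.017). Mki67 did not pass (FDR 0.13). Of 19 cell cycle inhibitors and p53 targets, 6 rose (31.6%) and 3 fell (15.8%), near the 23.3% and 20.7% of all tested genes. Pmaip1, which encodes the proapoptotic protein Noxa, fell from 64.3, 58.2 and 63.8 to 10.2, 8.45 and 11.6 CPM (log2 fold change −2.62, SE 0.14, FDR 3.1e-06). Cdkn1a, the p53 target p21, stood at 154, 160.5 and 137 CPM in EBs and 114, 103 and 124 CPM in EBs + RA, a log2 fold change of −0.41, under the limit. The raised genes of this list numbered 3 without EBs + RA of clone #7, without clone #1 or without clone #7. Of 6 base excision repair genes only Neil2 passed, from 6.61, 8.54 and 10.8 to 3.40, 3.99 and 4.59 CPM (log2 fold change −1.11, SE 0.24, FDR 0.0043), while Neil1 and Apex1 did not (FDR 0.64 and 0.62). Among 10 genes often used as references, 1 rose and Rplp0 and Pgk1 fell, Pgk1 from 2363, 2448 and 2699 to 1107, 984 and 854 CPM (log2 fold change −1.35, SE 0.12, FDR 3.3e-05).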
